A study of Mus musculus with 12 samples.

Results

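Before any stimulus, Ikaros and RelA were each listed at their own set of places on macrophage chromatin, and the sets met at 45 regions. The regions described here are the hotspots, which are stretches enriched for sequence tags, of the 3 libraries made from cells without lipopolysaccharide (LPS). They were chosen by library title and, for the littermate library, by a highest tag density of 10 or more, after hotspots that met a hotspot of untreated input DNA by 1 bp or more had been dropped. That left 853 Ikaros hotspots, 47 RelA hotspots of wild-type cells and 265 RelA hotspots of littermate control cells, 1165 in all, out of 50940 hotspots deposited over the 10 lists of the series.

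The cells were macrophages grown from bone marrow of C57BL/6J mice, given LPS, the bacterial cell wall lipid that macrophages sense, for 0, 3 or 8 h. Ikaros at 0 h and RelA at 0 h came from animals labelled wild type, and a second RelA library at 0 h came from animals labelled littermate control, whose alleles the labels do not give. Input DNA came from untreated wild-type cells, and no littermate input was analysed here. Each of these 4 groups was 1 library, as was each of the 6 immunoprecipitated libraries at 3 and 8 h. There is therefore no spread between replicates and no p-value, and ranges in brackets after a share are 95% Clopper-Pearson intervals (exact), which cover counting error over hotspots only. The Ikaros and RelA immunoprecipitations also differed in antibody, beads and shearing time, per the labels' protocols, so factor and procedure cannot be told apart. The file names of both wild-type 0 h libraries give 3 h instead, and the labels were followed. Binding lists hold no expression, so the labelled cell type was not checked against marker genes.

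Ikaros, encoded by Ikzf1, is a zinc finger protein first known for its part in lymphocyte development, and it can recruit chromatin remodelling complexes to the DNA it binds. RelA is a subunit of NF-kB and carries a transactivation domain. In unstimulated cells most RelA is held in the cytoplasm by inhibitory IkB proteins, and LPS signalling through its receptor leads to loss of these inhibitors and entry of RelA into the nucleus. Ikaros is a nuclear protein.

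The Ikaros list was the longest of the 3 and held the densest regions. The highest tag density of an Ikaros hotspot, in the deposited density units, ran from 5.27 through a median of 21.6 to 256. For wild-type RelA it ran from 2.94 through 19.4 to 38.8, and for littermate RelA from the floor of 10.0 through 25.4 to 123. Medians thus lay close together, while the upper ends did not: 41 Ikaros hotspots reached a density of 50, against 15 littermate RelA hotspots and 0 wild-type ones. The scale of the densities and the number of reads per library are not known, so these values describe each list and are no measure of difference between libraries. Hotspots were narrow in all 3 lists, with a median width of 487 bp for Ikaros, 443 bp for wild-type RelA and 448 bp for littermate RelA. In immunoprecipitates of whole cultures, binding in fewer cells and weaker binding in each cell cannot be told apart.

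**Figure D1:**
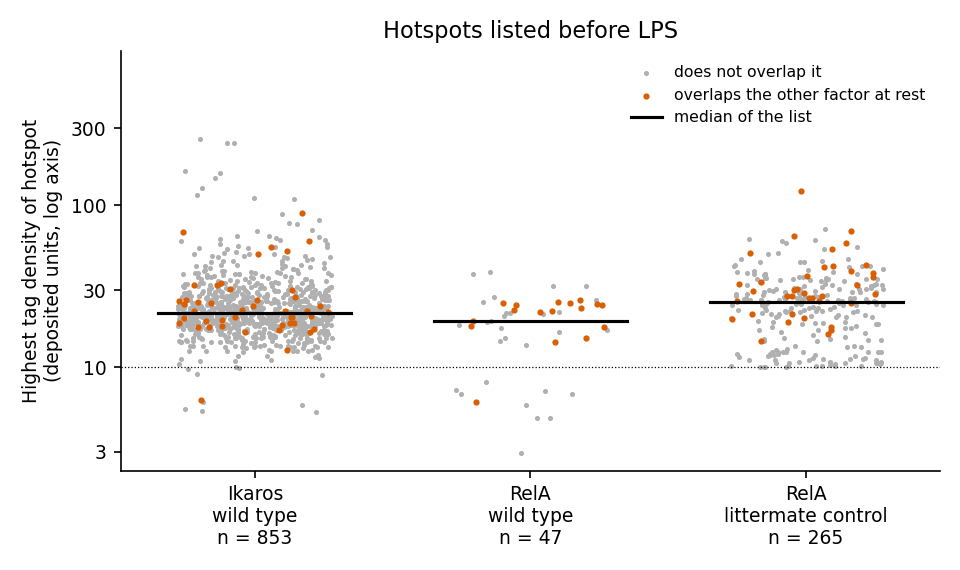
Highest tag density of every hotspot listed before LPS, in deposited units on a log axis, for Ikaros in wild-type cells (n = 853), RelA in wild-type cells (n = 47) and RelA in littermate control cells (n = 265). Orange points overlap the other factor at rest, grey points do not, black lines are medians (21.6, 19.4 and 25.4), and the dotted line is a density of 10, the floor of the littermate list.

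Input background touched the lists unequally. Of the deposited hotspots, 51 of 904 for Ikaros, 5.64% (4.23 to 7.35), overlapped input, against 36 of 83 for wild-type RelA, 43.4% (32.5 to 54.7), and 48 of 313 for littermate RelA at the density floor, 15.3% (11.5 to 19.8). The Ikaros hotspots dropped in this way were stronger than those kept, with a median z score, the authors' enrichment score, of 162 and a highest of 1265, against a median of 13.0 and a highest of 135 among the others. Beside the littermate floor, the nearest hotspots left out had a highest density of 9.63 and the nearest kept one had 10.0. The lowest z score was 9.90 for Ikaros, 9.93 for wild-type RelA and 10.9 for littermate RelA at the floor.

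The 5 strongest resting Ikaros regions carried no RelA in any list, as did 568 of all 853 Ikaros hotspots, 66.6% (63.3 to 69.8). The first by z score lay on chromosome 10 at 11211605 to 11212153 (mm9, coordinates as deposited), with a z score of 135 and a highest density of 256. It was followed by chromosome 3 at 61962819 to 61963443 with a z score of 130, and by chromosome 8 at 3754156 to 3754824 with 124. The fourth, on chromosome 13 at 113368245 to 113368750, had a z score of 107, and the fifth, on chromosome 18 at 85866985 to 85867864, had 87.3. All 5 were listed again for Ikaros at 3 and 8 h. At 3 h their z scores in the Ikaros list were 175, 172, 176, 137 and 133. None overlapped a RelA hotspot at 0, 3 or 8 h in either series. The same held for the first 10 by z score and for the first 10 by highest density. Among the first 50 by z score, 5 overlapped RelA at rest, 12 overlapped wild-type RelA at 3 h, and 36 met no RelA list at any time, counting the littermate list at 0 h from its density floor up. Over all 853 the shares were 5.28% with RelA at rest, 32.2% with wild-type RelA at 3 h and 66.6% with no RelA list. In the strongest of 5 equal classes by z score, 7.60% (4.11 to 12.6) overlapped RelA at rest and 33.9% (26.9 to 41.5) overlapped wild-type RelA at 3 h. The intervals of this class included the shares over all 853.

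The 5 strongest resting RelA regions of wild-type cells by z score were not those of Ikaros. Of these, 2 overlapped a resting Ikaros hotspot, against 36.2% of all 47 wild-type RelA hotspots. By highest density 0 of the first 5 did. In wild-type cells the first region by z score, on chromosome 6 at 48779492 to 48780093, had a z score of 28.3 and a highest density of 38.8, and no resting Ikaros hotspot overlapped it. The second, on chromosome 11 at 43198553 to 43199197, had a z score of 22.0 and also lay outside the resting Ikaros list. The third, on chromosome 11 at 70281229 to 70281798 (z 20.1), did carry resting Ikaros. The fourth, on chromosome 17 at 13202840 to 13203464 (z 20.1), did not, and the fifth, on chromosome 15 at 6519027 to 6519642 (z 19.6), did. All 5 were also in the littermate resting list, and all 5 were listed for both RelA and Ikaros at 3 and 8 h. Over all 47, 59.6% were in the littermate resting list. At 3 h, 78.7% overlapped wild-type RelA and 74.5% Ikaros, and at 8 h 76.6% overlapped each. By highest density, the regions ranked 4 and 5 were not in the littermate resting list. Of the 5 by z score, the 3 without Ikaros at rest had Ikaros z scores of 17.8, 19.8 and 30.2 at 3 h.

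In the littermate list, z score and density picked different regions. By both measures the first was chromosome 12 at 81912694 to 81913420, with a z score of 63.8 at a highest density of 123, a region with resting Ikaros and with RelA in the wild-type list. The second by z score, on chromosome 11 at 43198444 to 43199329, had a z score of 53.5 at a density of 62.4 and was also in the wild-type list. The third, on chromosome 18 at 4195448 to 4196096, had a z score of 45.7 at a density of only 10.6. The fourth, on chromosome 17 at 35530611 to 35531153, had a z score of 45.5 at a density of 22.3. The fifth, on chromosome 8 at 56203860 to 56204303, had a z score of 43.6 at a density of 13.5. These last 3 overlapped no wild-type hotspot of either factor at any time. Across hotspots within a list, the rank correlation of z score and highest density was 0.43 in the littermate list, 0.70 in the wild-type RelA list and 0.79 in the Ikaros list. These are descriptions over 265, 47 and 853 regions that share a library each.

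Overlap of the factors at rest was a small part of the Ikaros list and a larger part of the RelA lists. Of 853 Ikaros hotspots, 17 overlapped wild-type RelA, 1.99% (1.17 to 3.17), and 38 overlapped littermate RelA at the floor, 4.45% (3.17 to 6.06). With either RelA list the number was 45, or 5.28% (3.87 to 7.0). Seen from RelA, the 17 were 36.2% (22.7 to 51.5) of the 47 wild-type hotspots and the 38 were 14.3% (10.4 to 19.1) of the 265 littermate hotspots. Over the whole littermate list, weak hotspots included, only 40 of 5805 overlapped resting Ikaros, 0.689% (0.493 to 0.937), and just 2 of those 40 lay below the density floor. With input hotspots kept, 3.54% of Ikaros hotspots overlapped wild-type RelA, and over the upper 50% of each list by z score 21.7% of wild-type RelA overlapped Ikaros and 3.29% of Ikaros overlapped either RelA. The lists differ greatly in length, so shares in both directions are not measures of one quantity. RelA recorded in both series numbered 28 regions, of which 10 carried Ikaros, 35.7% (18.6 to 55.9). Littermate RelA hotspots that met no wild-type RelA hotspot carried Ikaros in 28 of 237 cases, 11.8% (8.00 to 16.6). By highest density, the regions in both RelA lists stood at a median percentile of 88.6 in the littermate list. The part of density in this contrast was not tested. Wild-type RelA hotspots that met no littermate hotspot at the floor carried Ikaros in 7 of 19 cases, 36.8% (16.3 to 61.6). These 2 shares among wild-type RelA hotspots were similar, but those without a littermate hotspot included all 10 of density below 10. Of these 10, 1 carried Ikaros, against 16 of the 37 wild-type hotspots of density 10 or more, 43.2%. The shares with and without a littermate hotspot were not compared at like density.

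Where both factors were listed, their hotspots lay on top of each other. The centre of the Ikaros hotspot was a median of 45.2 bp from that of littermate RelA and 50.5 bp from that of wild-type RelA. It lay within 100 bp in 35 of 38 and 15 of 17 pairs. The widest separation was 226 bp, on chromosome 14 at 67464104 to 67464657. No Ikaros hotspot without RelA had a resting RelA hotspot within 1 kb, and the closest was 1748 bp away, on chromosome 12.

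The 10 regions with Ikaros and with RelA in both series spanned a wide range of Ikaros strength. The strongest for Ikaros, on chromosome 12 at 86764670 to 86765400, ranked 13 of 853 with a z score of 46.2, while its RelA z scores were 11.8 in wild type (rank 32 of 47) and 24.4 in the littermate list (rank 44 of 265). On chromosome 13 at 20878758 to 20879339 Ikaros had a z score of 25.6, wild-type RelA 14.2 and littermate RelA 24.4. Next came chromosome 11 at 59354621 to 59355313, with z scores of 22.9, 12.3 and 17.3 in the same order. Those 3 regions ranked 13, 66 and 86 for Ikaros, and 32, 15 and 27 for wild-type RelA.

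Chromosome 11 at 70281210 to 70281821 was high for both factors, with an Ikaros z score of 21.1 (rank 109), a wild-type RelA z score of 20.1 (rank 3) and a littermate RelA z score of 39.9 (rank 9). On chromosome 10 at 37057914 to 37058686 the z scores were 19.1 for Ikaros, 12.3 for wild-type RelA and 17.1 for littermate RelA. On chromosome 12 at 81912688 to 81913282, the strongest littermate RelA region of all (z 63.8), Ikaros had a z score of 15.0 (rank 284) and wild-type RelA one of 11.6 (rank 33). That region led the littermate RelA list by both measures, while in the wild-type list it ranked 33 of 47 by z score and 15 by highest density.

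The other 4 were of middling or low Ikaros strength. Chromosome 17 at 18037771 to 18038292 had z scores of 14.0 for Ikaros, 12.9 for wild-type RelA and 21.7 for littermate RelA, and chromosome 5 at 53900636 to 53901131 had 13.8, 13.8 and 20.8. On chromosome 1 at 133173388 to 133173874 they were 12.7, 10.3 and 20.5. Chromosome 15 at 6519063 to 6519429 had the lowest Ikaros z score of the 10, 11.6 (rank 583), but RelA z scores of 19.6 (rank 5) and 39.3 (rank 10). All 10 were listed again for both factors at 3 h.

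Resting strength ranks of the factors had low rank correlations, whose values depended on how regions were paired and ranked. Over the 38 regions shared with littermate RelA, the Spearman rank correlation of the z scores was 0.24, and by highest density it was 0.20. Over the 17 regions shared with wild-type RelA these values were -0.01 and 0.15. By comparison, the z scores of RelA in the wild-type and littermate lists had a rank correlation of 0.42 over their 28 common regions, and their highest densities one of 0.57. With reciprocal overlap of at least 50% the value for Ikaros and littermate RelA was 0.46 (32 pairs). With input hotspots kept, that for Ikaros and wild-type RelA was 0.42 (33 pairs), and these pairs include hotspots that overlapped input. The correlation between the RelA lists was not computed under these settings. By mean density Ikaros had 0.32 with littermate RelA and 0.27 with wild-type RelA, and the RelA lists had 0.58 with each other. All of these are descriptions over regions that share libraries, without p-values. Of the 38 regions, 13 stood in the upper part of both lists, cut at the 50th percentile of z score, 10 only in that of Ikaros, 7 only in that of RelA and 8 in neither. The median percentile of the shared regions was 58.1 in the Ikaros list and 53.2 in the littermate RelA list, near the middle of each. By highest density the littermate percentile was 65.9.

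**Figure D2:**
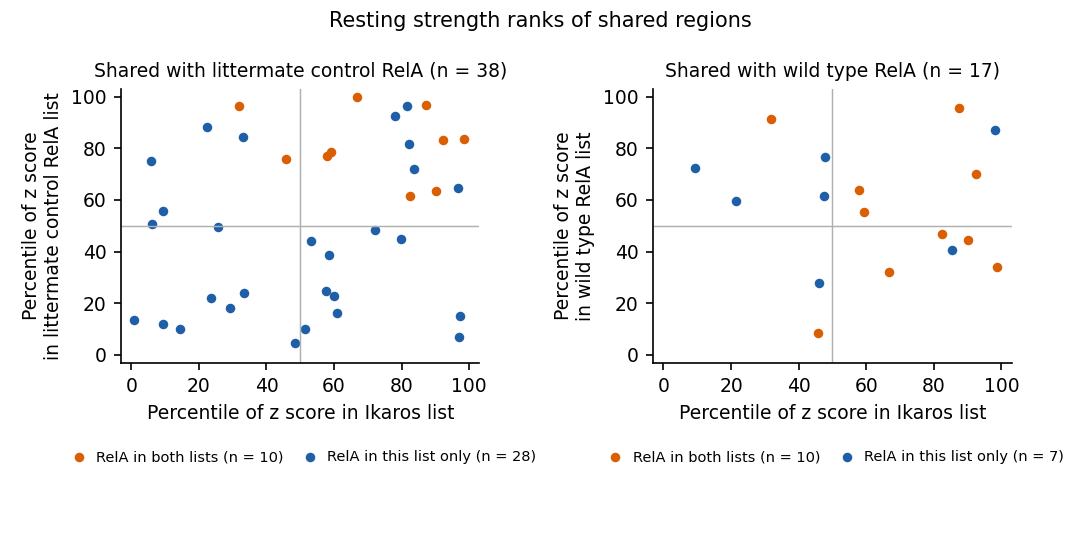
Percentile of the z score in the Ikaros list (horizontal) against that in the littermate RelA list (left, n = 38) or the wild-type RelA list (right, n = 17) for each shared region; orange points carried RelA in both lists and grey lines mark the 50th percentile. Points lie on all sides of the grey lines in both panels, and the rank correlations were 0.24 and -0.01.

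The widest gaps ran in both directions. On chromosome 2 at 126759716 to 126760398 the z score stood at the 97.0th percentile for Ikaros (35.4) and at the 6.79th for littermate RelA (11.3). On chromosome 7 at 108222759 to 108223500 it stood at the 97.3rd percentile for Ikaros (36.1) and the 15.1st for RelA (11.8). The former was listed for RelA at 3 h in both series, the latter in neither. In 3 further regions Ikaros exceeded RelA by between 41.3 and 44.6 percentile points, on chromosome 16 at 27374080, chromosome 15 at 78074974 and chromosome 18 at 83045533 (start coordinates). In the other direction, chromosome 10 at 76728892 to 76729305 stood at the 5.74th percentile for Ikaros (z 10.2) and the 75.1st for RelA (z 20.3). Chromosome 17 at 29532390 to 29532712 followed, at the 22.4th and 88.3rd percentiles. For the next 3, on chromosome 15 at 6519063, chromosome 2 at 167579344 and chromosome 16 at 87625616 (starts), RelA exceeded Ikaros by 64.8, 51.4 and 46.5 percentile points. Of these regions, all 5 that ranked higher for RelA and 4 of the 5 that ranked higher for Ikaros were listed for wild-type RelA at 3 h, as were 37 of all 38 shared regions, so this did not set either kind apart.

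Ikaros regions with and without resting RelA had similar Ikaros strength and different overlap with RelA after LPS. Their median Ikaros z score was 13.8 (middle 50%: 11.4 to 19.1, n = 45), against 13.0 (11.1 to 16.7, n = 808). Over all 853 Ikaros hotspots, 32.2% overlapped wild-type RelA at 3 h and 14.1% at 8 h, and 14.2% and 7.74% overlapped littermate RelA at these times. Among the 45 with resting RelA, 42 overlapped wild-type RelA at 3 h, 93.3% (81.7 to 98.6), and 37 at 8 h, 82.2% (67.9 to 92.0). Among the 808 without it, 233 did at 3 h, 28.8% (25.7 to 32.1), and 83 at 8 h, 10.3% (8.27 to 12.6). In the littermate lists the shares were 80.0% (65.4 to 90.4) against 10.5% (8.49 to 12.8) at 3 h, and 68.9% (53.4 to 81.8) against 4.33% (3.04 to 5.97) at 8 h. The 2 classes were themselves set by RelA lists of the same series at 0 h. Resting RelA hotspots without Ikaros also overlapped wild-type RelA at 3 h. They did so in 22 of 30 cases in the wild-type list, 73.3% (54.1 to 87.7), and 138 of 227 in the littermate list, 60.8% (54.1 to 67.2). A total of 568 of the 808 Ikaros hotspots without resting RelA, 70.3% (67.0 to 73.4), met no RelA list at any time.

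By overlap of 1 bp, most resting Ikaros hotspots of both classes were listed for Ikaros again. Of all 853 Ikaros hotspots, 88.7% were listed again for Ikaros at 3 h and 93.9% at 8 h. With resting RelA 44 of 45 were listed at each time, 97.8% (88.2 to 99.9). Without it 713 of 808, 88.2% (85.8 to 90.4), were listed at 3 h and 757, 93.7% (91.8 to 95.3), at 8 h, so the intervals overlapped. With reciprocal overlap of at least 50% the order turned at both times, but the intervals again overlapped. With resting RelA the shares were 67.5% (50.9 to 81.4) at 3 h and 55.0% (38.5 to 70.7) at 8 h. Without it they were 68.4% (65.1 to 71.6) and 63.2% (59.8 to 66.5). A small number of resting Ikaros regions, 36 of 853, 4.22% (2.97 to 5.80), were listed at neither later time. In the weakest of 5 equal classes by z score 81.3% (74.6 to 86.8) were listed again at 3 h, and in the strongest 98.8% (95.8 to 99.9).

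**Figure D3:**
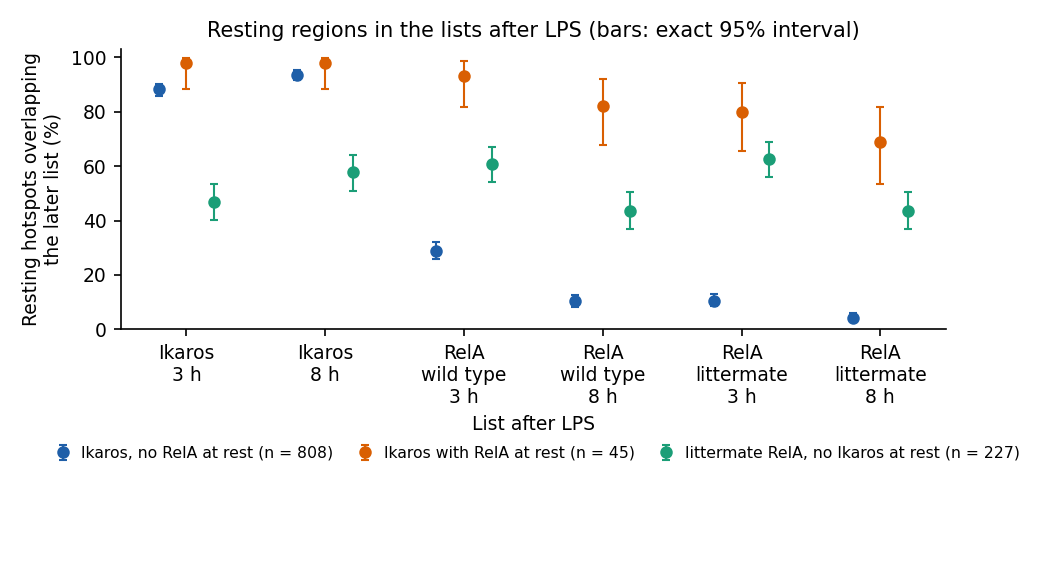
Share of resting hotspots that overlapped each list after LPS, for Ikaros hotspots without resting RelA (n = 808), Ikaros hotspots with resting RelA (n = 45) and littermate RelA hotspots without resting Ikaros (n = 227); points are percentages and bars exact 95% intervals. In the wild-type RelA list at 3 h the shares were 28.8%, 93.3% and 60.8%. Littermate RelA hotspots without Ikaros had a median highest density of 24.3, against 29.1 with it. The part of density in these shares was not tested.

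Many resting RelA regions without Ikaros carried Ikaros after LPS. Of the 265 littermate RelA hotspots, 54.3% overlapped Ikaros at 3 h and 63.8% at 8 h, and 66.0% and 49.4% overlapped wild-type RelA at 3 and 8 h. All 38 with resting Ikaros still carried it at both times by 1 bp, 100% (90.7 to 100), but with reciprocal overlap of at least 50% the shares were 59.4% at 3 h and 50.0% at 8 h, of 32. Of the 227 without it, 106 overlapped Ikaros at 3 h, 46.7% (40.1 to 53.4), and 131 at 8 h, 57.7% (51.0 to 64.2), which was 38.2% with reciprocal overlap of at least 50%. Of the wild-type RelA hotspots, 74.5% overlapped Ikaros at 3 h and 76.6% at 8 h. Of the 30 without resting Ikaros, 19 did so at 3 h, 63.3% (43.9 to 80.1), and 20 at 8 h, 66.7% (47.2 to 82.7). The Ikaros list grew over the same times to 7109 and 13796 hotspots, so later overlap was counted against longer lists.

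In wild-type cells, density parted the resting RelA hotspots that recurred from those that did not. Of the 47, 37 had a highest density between 13.7 and 38.8, and 36 of these overlapped wild-type RelA at 3 h. The other 10 had densities between 2.94 and 8.10, and 1 of them did. No wild-type RelA hotspot lay between these ranges. Of the 37 dense hotspots, 16 carried resting Ikaros, 43.2% (27.1 to 60.5), and of the 21 that did not, 19 carried Ikaros at 3 h, 90.5% (69.6 to 98.8). All 21 overlapped wild-type RelA at 3 h, 100% (83.9 to 100). None of the 10 sparse hotspots overlapped Ikaros at 3 or 8 h, 0% (0 to 30.8).

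The littermate list was cut into 5 equal classes by highest density, and overlap with the wild-type lists differed strongly between them. In the sparsest class, with densities of 10.0 to 13.5, none of 53 overlapped resting Ikaros, 4 overlapped wild-type RelA at 3 h, 7.55% (2.09 to 18.2), and 2 overlapped Ikaros at 3 h. In the next class, up to 22.3, 9 of 53 overlapped resting Ikaros and 32 overlapped wild-type RelA at 3 h, 60.4% (46.0 to 73.5). In the densest class, from 34.9 up, 13 overlapped resting Ikaros, 24.5% (13.8 to 38.3), and 48 overlapped wild-type RelA at 3 h, 90.6% (79.3 to 96.9). Within the littermate series itself the sparsest class recurred more often than in the wild-type RelA list at 3 h, but these lists were unlike. The littermate list at 3 h had no density floor and held 9999 hotspots, against 4972 for wild-type RelA. The part of list length was not tested. The sparsest class overlapped littermate RelA in 26 of 53 at 3 h, 49.1% (35.1 to 63.2), and in 16 at 8 h, 30.2% (18.3 to 44.3). In the densest class these shares were 81.1% (68.0 to 90.6) and 73.6% (59.7 to 84.7). By z score the share with wild-type RelA at 3 h was 62.3% (47.9 to 75.2) in the lowest class, 75.5% in the fourth and 58.5% (44.1 to 71.9) in the highest. The share with littermate RelA at 3 h was 45.3% (31.6 to 59.6) in the lowest class by z score and 77.4% (63.8 to 87.7) in the highest, and at 8 h it was 32.1% (19.9 to 46.3) and 64.2% (49.8 to 76.9). For Ikaros, 31.6% (24.7 to 39.1) of the sparsest and 27.5% (20.9 to 34.8) of the densest class overlapped wild-type RelA at 3 h.

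**Figure D4:**
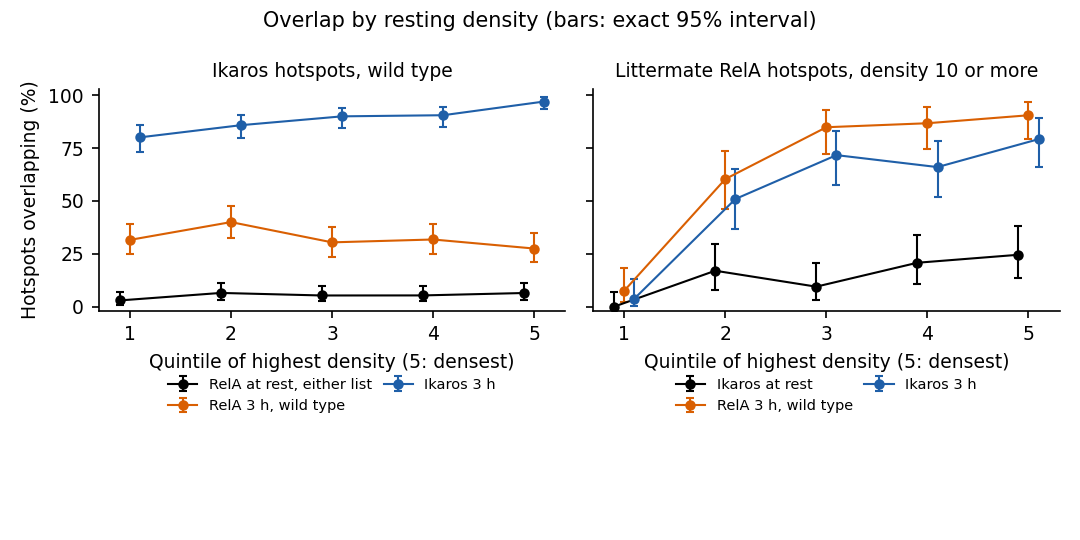
Share of resting hotspots that overlapped the other factor at rest (black), wild-type RelA at 3 h (orange) or Ikaros at 3 h (blue), by 5 equal classes of highest density, for Ikaros (left, 170 or 171 hotspots each) and littermate RelA (right, 53 each); bars are exact 95% intervals. Overlap with wild-type RelA at 3 h lay between 27.5% and 40.0% for Ikaros and went from 7.55% to 90.6% for littermate RelA, while overlap of the latter with its own series at 3 h, not drawn, went from 49.1% to 81.1%.

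Regions with both factors at rest were among the strongest of either factor after LPS. In the wild-type RelA list at 3 h, the 42 hotspots on such regions had a median z score of 41.1 and stood at a median percentile of 96.3 (middle 50%: 81.9 to 99.5). The 142 on regions with RelA alone at rest stood at 86.7 (64.6 to 95.9), the 232 on regions with Ikaros alone at 65.3 (38.0 to 80.6), and the 4556 others at 48.0 (23.7 to 72.6). In the Ikaros list at 3 h, hotspots on regions with both factors at rest had a median z score of 32.4 and stood at 95.6 (90.5 to 97.7, n = 44). Those on regions with Ikaros alone stood at 88.0 (70.8 to 95.6, n = 706) and those on regions with RelA alone at 62.5 (37.4 to 79.0, n = 109). At 8 h the order was the same in both wild-type lists, with 91.5, 79.9, 53.1 and 47.6 for RelA and 98.3, 73.8, 92.8 and 47.2 for Ikaros, given as both factors, RelA alone, Ikaros alone and neither. The littermate series came from other animals than the Ikaros library, but it helped set the classes. Of the 45 Ikaros hotspots with resting RelA, 38 overlapped the littermate list at the floor. In the littermate RelA list at 3 h, the 36 hotspots on regions with both factors stood at 98.1 (70.4 to 99.7). The 146 with RelA alone stood at 79.5 (50.3 to 94.7). The 86 with Ikaros alone stood at 56.6 and the 9731 others at 49.4. By highest density the classes lay closer, at 99.0, 93.7, 90.9 and 43.9 in the same order. In the littermate list at 8 h the z score percentiles were 98.2, 89.3, 82.4 and 49.0. Dense hotspots were also wide, with a rank correlation of width and highest density of 0.74 over the resting Ikaros list and 0.71 over the littermate RelA list, and the part of width in these ranks was not tested.

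**Figure D5:**
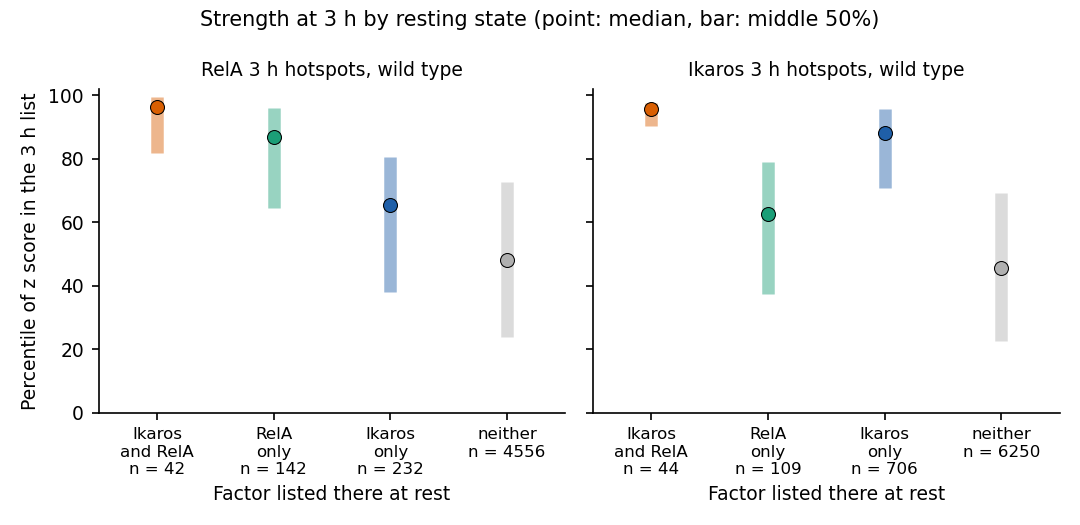
Percentile of z score within the wild-type 3 h list of RelA (left) and Ikaros (right) for hotspots that overlapped both factors, RelA alone, Ikaros alone or neither at rest; points are medians and bars span the middle 50%. Regions with both factors at rest had the highest median in each list, 96.3 for RelA (n = 42) and 95.6 for Ikaros (n = 44).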

How the data were processed

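Hotspots were deposited by the authors as 1 list per library, on mm9; the submitters' processing notes also name CASAVA. The aligner, hotspot caller, threshold and input handling are not given in the sources used. Per the file headers, each list gives the highest and mean tag density (a signal of unstated scale), a z score and its p-value. The deposited p-values were not used.

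Hotspots that met a wild-type input hotspot by at least 1 bp were removed, and hotspots sharing 1 bp or more were called overlapping. The density floor was applied only to the resting littermate list. Percentiles were ranks within 1 list. Widths are end minus start. Python 3.11.15, numpy 2.4.6, pandas 2.3.3, scipy 1.17.1 and matplotlib 3.10.9 were used, and overlap counting was tested on simulated lists.

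The named regions are the 5 highest by z score of each list, the regions shared by all 3 lists and the 5 widest percentile gaps each way between Ikaros and littermate RelA. Members and rules were chosen with earlier results of these data known. Gene tables at hand are of another build, so no gene, motif or sequence was assigned. The depth of every library is unknown.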

Additional observations from a re-analysis of the deposited data

How the results depend on the processing

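No test is attached to these values. A share counted as moved when it left its 95% interval, a number of hotspots when it changed by over 1.5 times, a rank correlation by over 0.1 and a percentile by over 10 points. Not every result was run under every setting. Of 113 pairs of a result and an alternative setting, over 36 results, 76 stayed within these bounds. With input hotspots kept, wild-type RelA had 83 hotspots, 3.54% of Ikaros hotspots overlapped it, and their rank correlation was 0.42. Ikaros regions with RelA were then in the wild-type RelA 8 h list in 65.6%, and littermate RelA without Ikaros was in Ikaros 3 h in 39.7%, Ikaros 8 h in 48.5% and wild-type RelA 3 h in 52.6%. With no littermate floor that list held 5805 hotspots, 0.689% with Ikaros, at a median percentile of 77.8; at a floor of 5 it held 2244, 1.74% with Ikaros. Using the upper 50% of each list, 21.7% of wild-type RelA and 9.85% of littermate RelA overlapped Ikaros, and 3.05% and 3.29% of Ikaros overlapped littermate and either RelA. By highest and mean density the Ikaros and wild-type RelA rank correlation was 0.15 and 0.27, and the littermate percentile 65.9 and 69.2.

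Under reciprocal overlap of at least 50%, the Ikaros and littermate RelA rank correlation was 0.46 (32 pairs). The shares after LPS that moved were lower, with the classes redrawn under the same rule, and the cause was not tested. Ikaros without RelA was in Ikaros 3 and 8 h in 68.4% and 63.2%, wild-type RelA in 20.5% and 8.24%, and littermate RelA 3 h in 8.49%. Ikaros with RelA was in Ikaros 3 and 8 h in 67.5% and 55.0%, and in wild-type RelA in 62.5% and 67.5%. Littermate RelA without Ikaros was in Ikaros 3 and 8 h in 36.9% and 38.2%, wild-type RelA 3 h in 46.4% and littermate RelA 3 h in 54.9%. With Ikaros these shares were 59.4% and 50.0% for Ikaros and 62.5% for wild-type RelA 3 h. The shares after LPS were run again only under reciprocal overlap of at least 50% and with input hotspots kept. Under both, the shares with RelA remained higher for Ikaros with resting RelA than without it. No paired analysis was possible because each group has 1 library and the values come from no test.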

Other observations

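Resting Ikaros hotspots were unevenly spread over the chromosomes. Chromosome 11 held 83 of 853, 9.73% (7.82 to 11.9), against 4.61% of chromosome length, and chromosome 2 held 92, 10.8% (8.78 to 13.1), against 6.88%. The X chromosome held 13, 1.52% (0.814 to 2.59), against 6.31%. The highest end coordinate in any list stood in for the length of each chromosome. For littermate RelA the X chromosome held 12 of 265, 4.53% (2.36 to 7.78), and chromosome 11 held 22, 8.30% (5.28 to 12.3).

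Some resting Ikaros hotspots had close neighbours, though the median distance to the nearest other Ikaros hotspot was 412 kb. Another Ikaros hotspot lay within 1 kb of 23 of the 853, 2.70% (1.72 to 4.02), and within 10 kb of 71, 8.32% (6.56 to 10.4). Resting RelA without overlap lay within 10 kb of 11 of the 808 other Ikaros hotspots, 1.36% (0.682 to 2.42). Its median distance from such an Ikaros hotspot was 2512 kb. The resting RelA lists were shorter than the Ikaros list, and the part of list length in these distances was not tested.

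The hotspots dropped for overlap with input partly coincided between factors. Of the 36 dropped wild-type RelA hotspots, 16 overlapped a deposited Ikaros hotspot, 44.4% (27.9 to 61.9), and of the 48 dropped littermate hotspots 3 did, 6.25% (1.31 to 17.2).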
